A study of Mus musculus with 9 samples.

Results

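The liver makes most of the circulating proteins of complement and of blood clotting, and 38 genes for such proteins were followed here through the livers of mice given doxycycline (Dox) or tetracycline (Tc). They were picked by name, with earlier results of these data known, as 17 complement genes and 21 genes of clotting and fibrinolysis among the 32285 genes of the table, and all 38 passed the filter on low values (a mean of at least 10 normalized counts). All 3 groups are taken here to be Tet-OFF mice that had received tamoxifen, controls included. Tet-OFF mice carry a CreERT2 recombinase under the ubiquitous CAG promoter and, at Rosa26, a tTA transactivator and a tetO-driven Venus and mCherry reporter. Tamoxifen removes a stop cassette before tTA. The paper's account of the RNA sequencing names neither genotype nor tamoxifen, and it describes the treated mice as male. The Dox group drank Dox hyclate at 2 mg/mL with 10 mg/mL sucrose for 7 days at 4 weeks of age, the Tc group drank Tc hydrochloride at the same concentration, and the controls were given neither drug. Whether the controls drank sucrose is not given in the sources used here, so drug and sucrose cannot be told apart in comparisons with them. In Tet-OFF mice both drugs also switch tTA off, so there exposure to a drug and loss of reporter expression cannot be told apart. Each group held 3 libraries of bulk liver RNA, in which fewer cells of a type and less RNA per cell cannot be told apart.

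Complement is a cascade of plasma proteases that opsonises and lyses targets. The classical pathway starts from C1 and the lectin pathway from mannose-binding lectins with their MASP proteases, both cleave C4 and C2, and all routes meet at C3, which the alternative pathway amplifies through factor B. The terminal components C5 to C9 then build the membrane attack complex. Clotting runs through contact factors and vitamin K-dependent proteases to thrombin, which turns fibrinogen into fibrin, and it is held in check by antithrombin, heparin cofactor II and the protein C system, while plasmin dissolves the clot. Several of these genes, among them C3 and the 3 fibrinogen chains, are known as acute-phase genes that hepatocytes express more strongly under interleukin-6.

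Some libraries stood apart. Recovered reads on genes ranged from 7426136 to 12183041 per library. In all 3 groups the counts of library 3 could be written nearly as a weighted sum of those of libraries 1 and 2 (fitted weights of 58.4% and 41.7% in Control, 61.3% and 34.5% in Dox, 61.2% and 36.9% in Tc), and it lay between them for 29, 36 and 26 of the 38 members and for 5562, 9446 and 6132 of the 12100 genes tested. Adjusted p-values over 3 libraries per group are therefore too small, and the main results are given with and without libraries 3. Without Dox library 2 the Dox group is libraries 1 and 3, which are not independent. Adjusted p-values without Dox library 2 are therefore too small as well. Dox library 2 was the lowest of all 9 libraries for 34 of 38 members. All 8 hepatocyte markers examined passed the filter, with a summed normalized count between 628100 and 1611000 per library.

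The promoters of the 3 fibrinogen genes are shown because these chains changed together with Dox, and that of C3 because it was the most abundant member. RefSeq promoters (GRCm38.p6, from 250 bases before to 50 bases after the annotated start) were found for 30 of the 38 members. Capitals mark matches on either strand to CTGGGAA (a core of interleukin-6 response elements), TTCNNNGAA (the pattern of STAT sites), TTGCNNAA (a C/EBP pattern) and GTTAAT (a pattern of hepatocyte nuclear factor 1), and no matches overlap in these 4 windows. Fga lies at chr3:83025903-83026202 (plus strand), Fgb at chr3:83049814-83050113 (minus strand), Fgg at chr3:83007474-83007773 (plus strand) and C3 at chr17:57228087-57228386 (minus strand).
Fga: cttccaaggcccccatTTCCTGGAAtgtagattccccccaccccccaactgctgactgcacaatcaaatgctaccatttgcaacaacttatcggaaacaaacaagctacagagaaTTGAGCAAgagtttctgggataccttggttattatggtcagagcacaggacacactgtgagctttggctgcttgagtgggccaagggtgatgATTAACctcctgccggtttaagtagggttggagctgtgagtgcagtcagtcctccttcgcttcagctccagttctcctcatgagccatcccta
Fgb: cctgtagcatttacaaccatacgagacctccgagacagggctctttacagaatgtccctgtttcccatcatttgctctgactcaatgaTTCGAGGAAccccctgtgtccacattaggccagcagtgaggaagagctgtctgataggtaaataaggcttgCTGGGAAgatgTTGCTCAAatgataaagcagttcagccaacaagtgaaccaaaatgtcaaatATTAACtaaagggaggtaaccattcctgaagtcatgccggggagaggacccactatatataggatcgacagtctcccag
Fgg: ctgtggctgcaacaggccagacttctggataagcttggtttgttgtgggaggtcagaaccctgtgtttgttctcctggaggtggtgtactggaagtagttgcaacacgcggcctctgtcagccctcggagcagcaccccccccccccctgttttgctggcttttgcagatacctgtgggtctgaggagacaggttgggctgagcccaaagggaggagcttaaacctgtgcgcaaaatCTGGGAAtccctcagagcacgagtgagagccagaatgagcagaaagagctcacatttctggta
C3: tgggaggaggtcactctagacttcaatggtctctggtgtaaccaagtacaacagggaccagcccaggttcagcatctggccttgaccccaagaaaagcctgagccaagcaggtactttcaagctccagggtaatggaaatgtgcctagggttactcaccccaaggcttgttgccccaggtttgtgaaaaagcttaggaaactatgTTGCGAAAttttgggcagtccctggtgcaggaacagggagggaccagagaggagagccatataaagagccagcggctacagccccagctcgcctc
In the Fgb window all 4 patterns occurred, with CTGGGAA starting 91 bases and TTGCNNAA 80 bases before the start. Fga held TTCNNNGAA at 234, TTGCNNAA at 135 and GTTAAT at 43 bases before the start. Fgg held a single match, CTGGGAA at 13 bases before the start, and C3 a single match, TTGCNNAA at 45 bases. Over all 32851 promoters of the table, CTGGGAA was found in 11.1%, TTCNNNGAA in 8.3%, TTGCNNAA in 10.8% and GTTAAT in 7.1%. Among the 32 promoter entries of members the shares were 21.9%, 21.9%, 37.5% and 25%. A match is a run of letters and does not show that a factor binds there.

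Per kilobase of annotated exon, the most abundant members in control livers were C3 (58900 normalized counts per kilobase), Fga (32100), Fgg (30000), Fgb (24000) and Plg, the precursor of plasmin (10500). The least abundant was C6, a terminal complement component, at 197 per kilobase. The members together took 8.32%, 7.89% and 7.99% of the counts of the 3 control libraries, 4.22%, 3.02% and 3.85% of the Dox libraries and 5.01%, 8.45% and 6.39% of the Tc libraries. Dox libraries thus all lay below every control and every Tc library, whereas 2 of the 3 Tc libraries lay below the control range and 1 above it. The mean share was 4.37 percentage points lower with Dox than in controls (difference of -4.37, two-sided exact permutation p = 0.1, the smallest p that 3 against 3 libraries allow). Against Tc the difference was -2.92 points (exact permutation p = 0.1), and Tc against control gave -1.45 points (exact permutation p = 0.4). Without libraries 3 these differences were -4.48, -3.11 and -1.37 points. The share is one of all counts in a library, and summed by role, C3 with the alternative pathway and fibrinogen were its largest parts in every library.

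**Figure D1:**
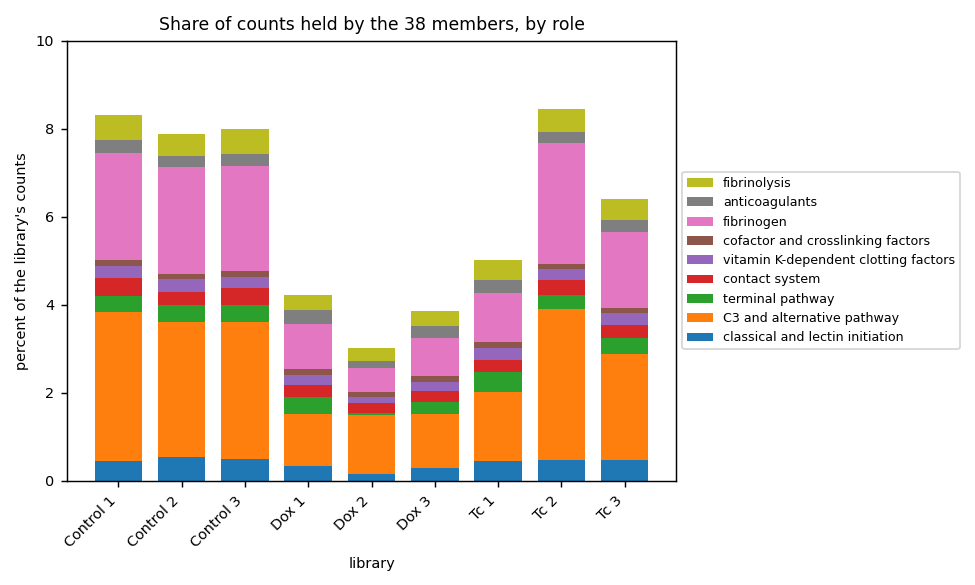
Stacked bars give the percent of each library's counts (y axis, from 0) held by the members of each role, for the 9 libraries on the x axis. C3 with the alternative pathway and fibrinogen are the tallest segments in every library, and the whole bar is shortest in Dox 2 at 3.02% and tallest in Tc 2 at 8.45%.

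With Dox, 4 of the 38 members were called lower than in controls and none higher. They were C4b and the 3 fibrinogen chains (limma on log2(normalized count + 1), Benjamini-Hochberg adjusted p under 0.05 and a fold over 2, where 3.86% of the 12100 genes tested were called lower). With no fold limit 7 members passed, all lower, with Cfb, F7 and Serpinf2 beside these 4 (5.26% of all genes passed lower). DESeq2 on the recovered reads called 8 members lower, adding Mbl2, C3, Cfi and Cpb2 (5.53% of genes with an adjusted p), and 15 lower with no fold limit (7.93%). In limma 23 members had an unadjusted p under 0.05, where 29.1% of all genes did. The estimated log2 fold change was below 0 for 37 of 38 members, against 6050 of the 12100 genes tested, and its median was -0.85 over the members and 0.00 over all genes (0.0001 before rounding). Without Dox library 2 the estimate was below 0 for 32 of 38 members, with a median of -0.58, and limma called 5 members lower and 1, C9, higher. Every Dox library lay below every control library for 24 of 38 members, against 17.1% of genes. Without libraries 3, neither limma nor DESeq2 called any member (0% and 0.892% of genes), with 6 and 13 members at an unadjusted p under 0.05 and a median log2 fold change of -0.87 in limma. Scaling every library to the same total moved the median of all genes by 0.17 on the log2 scale and left 36 of 38 members below 0, with a median of -0.68. The calls over all genes were 467 lower and 138 higher (77.2% lower) before that scaling, and 326 lower and 245 higher (57.1% lower) after it.

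**Figure D2:**
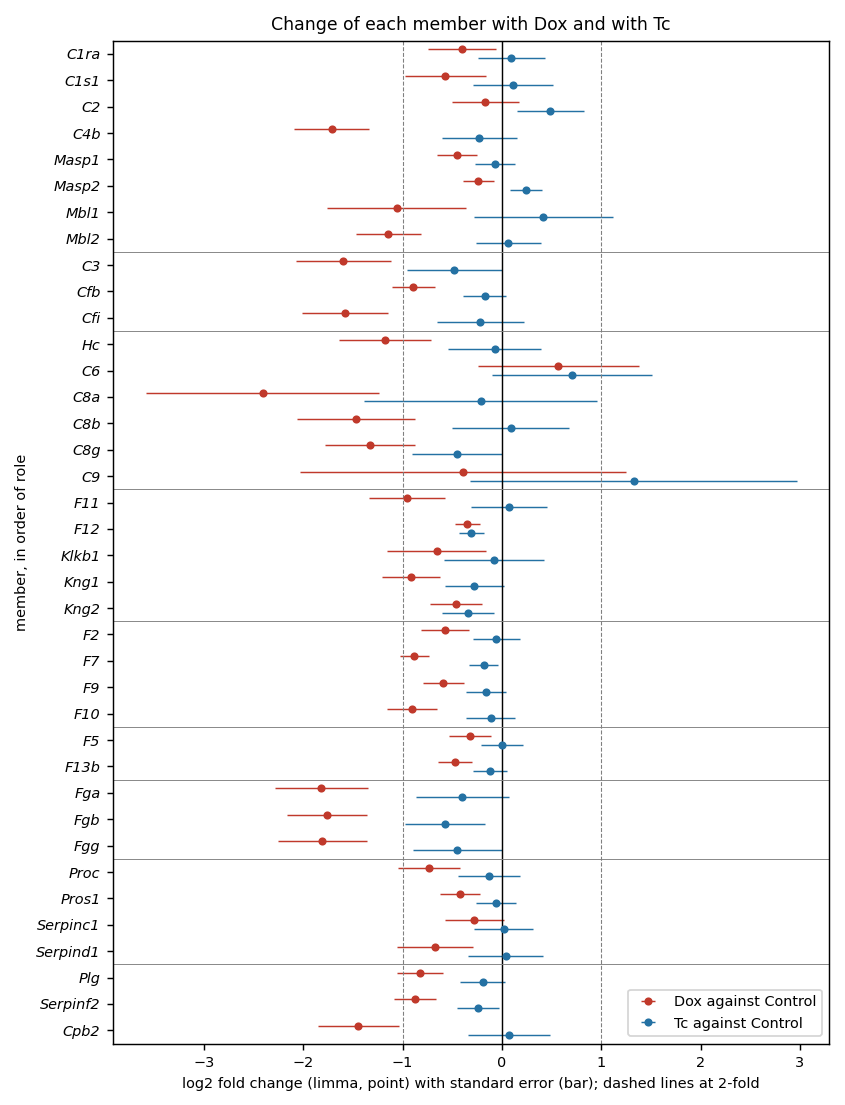
Points give the limma log2 fold change of each member against Control on the x axis and bars its standard error, red for Dox and blue for Tc, with members on the y axis in order of role. Every red point except that of C6 lies left of 0, while blue points scatter about 0 between -0.57 for Fgb and 1.33 for C9.

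Among the 8 genes of classical and lectin initiation, C4b was called lower with Dox and the other 7 were not. C4b encodes C4, which is cleaved to form the C3 convertase (ENSMUSG00000073418, chr17:34728380-34743882). Its normalized counts were 31615, 34970 and 33681 in controls, 16532, 5362 and 11952 with Dox, and 25690, 31379 and 28710 with Tc. The 3 Dox libraries lay below all others, and the Tc libraries lay just below the controls without overlap. The log2 fold change with Dox was -1.71 ± 0.38 (SE, limma, n = 3 per group, adjusted p = 0.0318), a level 3.28-fold lower. It was -1.57 in DESeq2 (adjusted p = 0.000341) and -1.25 in limma without Dox library 2 (adjusted p = 0.00701). Without libraries 3 it was -1.82 with an adjusted p of 0.566 in limma. C4a, a near-identical neighbour of C4b, was counted at 13.8 to 343.3, and reads that fit both genes were left out by counting uniquely mapped reads, so the division between them is uncertain.

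Mbl2, a mannose-binding lectin, stood at 3030, 3084 and 2754 in controls, at 2074, 742 and 1549 with Dox and at 2654, 3406 and 3248 with Tc. Dox libraries again lay below all others, and limma gave -1.14 ± 0.33 (SE, adjusted p = 0.064) where DESeq2 gave -1.02 (adjusted p = 0.0228). The DESeq2 adjusted p without libraries 3 was 0.485. Without Dox library 2 limma gave -0.72 (adjusted p = 0.018). Its relative Mbl1 had a value of 168 in Dox library 2 beside 1680 in Dox library 1 and between 1278 and 1587 in controls, so its log2 fold change of -1.06 carried a standard error of 0.70 and was -0.06 without that library. C2, the protease subunit of the C3 convertase, had the largest positive estimate of this role with Tc. Its counts were 1133, 1206 and 1246 in controls, 1626, 586 and 1259 with Dox and 2005, 1345 and 1746 with Tc. All Tc libraries lay above the controls, and the log2 fold change of 0.49 ± 0.34 (SE) was not called (adjusted p = 0.642). C1ra, C1s1, Masp1 and Masp2, all serine proteases, had estimates between -0.57 and -0.24 with Dox and between -0.07 and 0.24 with Tc, none past the threshold. These Dox estimates rested largely on Dox library 2: without it C1s1 was at -0.02, Masp1 at -0.25, Masp2 at -0.10 and C1ra at 0.05, and C2 went from -0.17 to 0.26.

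C3 and the alternative pathway stood lower in every Dox library than in every control and Tc library, for all 3 members. C3, the central component of the cascade (ENSMUSG00000024164, chr17:57203970-57228136), had counts of 341125, 268772 and 298781 in controls, 97807, 104814 and 96657 with Dox and 132121, 347759 and 220428 with Tc. The 3 Dox libraries were close to one another, in contrast to C4b, while Tc libraries 1 and 2 differed 2.63-fold. limma on all 9 libraries gave -1.60 ± 0.48 (SE, adjusted p = 0.0698) with Dox, and DESeq2 gave -1.60 (adjusted p = 3.48e-05). Leaving out libraries 3 raised the DESeq2 adjusted p to 0.142. With only the Control and Dox libraries in the limma fit the adjusted p was 0.0774. Cfb, factor B of the alternative pathway, was at 20126, 18173 and 19057 in controls, 12862, 8058 and 10535 with Dox and 15090, 19046 and 16903 with Tc. It was lower with Dox by less than the fold limit (-0.89 ± 0.22, SE, limma adjusted p = 0.0423). Cfi, factor I, which degrades C3b and C4b, stood at 11015, 10331 and 10575 in controls, 6350, 1561 and 4546 with Dox and 8711, 9978 and 8832 with Tc. Its estimate was -1.58 ± 0.44 (SE) in limma (adjusted p = 0.0591) and -1.36 in DESeq2 (adjusted p = 0.0126), and -0.99 in limma without Dox library 2 (adjusted p = 0.00754). For Cfi the DESeq2 adjusted p without libraries 3 was 0.417. An activator and an inhibitor of the alternative pathway therefore both stood lower with Dox.

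**Figure D3:**
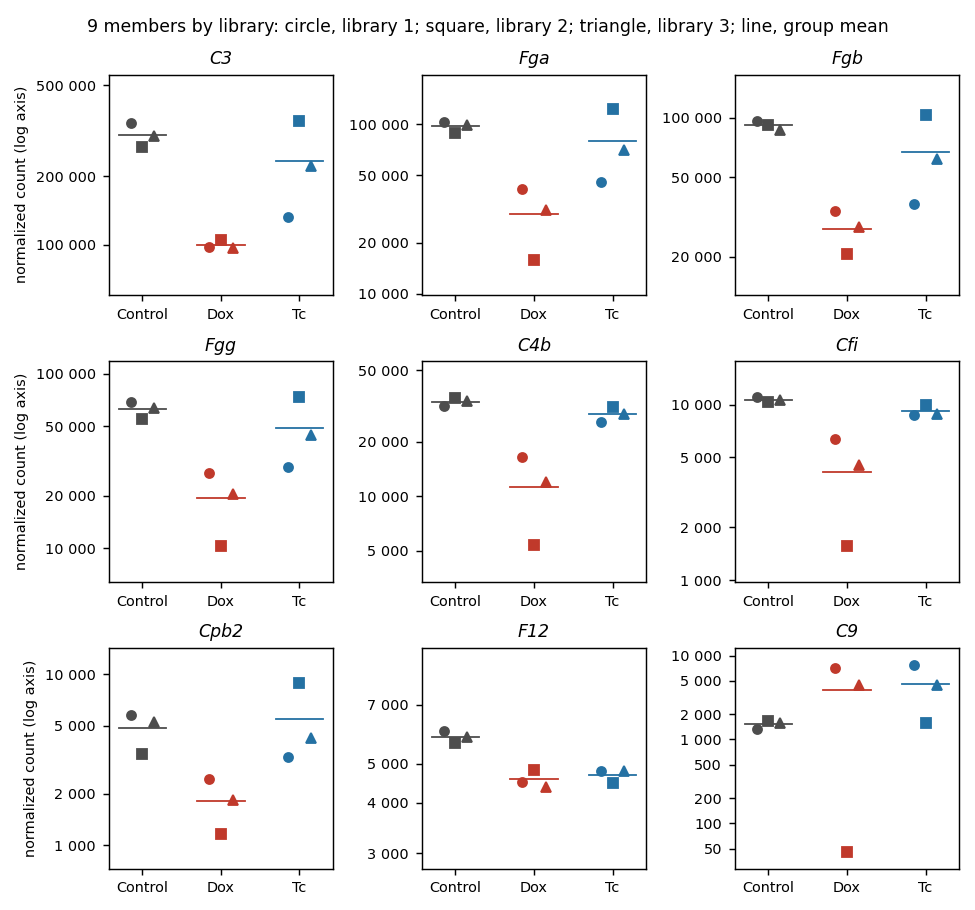
Each panel plots the normalized count (log y axis) of a member in each library of the 3 groups, with a horizontal line at the group mean. C3 forms a tight low group with Dox between 96657 and 104814, the fibrinogen chains spread in Tc with library 2 highest, F12 is similar in Dox and Tc, and C9 runs from 46 to 7195 with Dox.

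The terminal pathway varied most between livers of 1 group, and none of its 6 members was called in any comparison by limma or DESeq2. Hc, which encodes C5, was the most abundant of them by count, with 19285, 14092 and 18028 in controls, 13741, 3220 and 9577 with Dox and 16202, 17424 and 14877 with Tc. Its Dox libraries did not overlap the controls, and its log2 fold change was -1.18 ± 0.47 (SE, limma adjusted p = 0.139), or -0.57 without Dox library 2. C8a, a chain of C8, stood at 11743, 12081 and 10910 in controls, 8940, 204 and 5638 with Dox and 10440, 9096 and 10424 with Tc. Dox library 2 was 43.9-fold below Dox library 1, and the estimate of -2.41 had a standard error of 1.18 (adjusted p = 0.211). C8a without Dox library 2 was -0.70 in limma (adjusted p = 0.0407). C8b, its neighbour on chromosome 4, and C8g had estimates of -1.47 and -1.33 with Dox, and their Dox libraries lay below all controls. They were -0.66 and -0.71 without Dox library 2.

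C9, the component that polymerises into the pore, showed the widest range of all members. Its counts were 1323, 1649 and 1573 in controls, 7195, 46 and 4480 with Dox and 7629, 1587 and 4472 with Tc. Libraries 1 and 3 of both drug groups were above the controls, Tc library 2 was within the control range and Dox library 2 was far below it. limma on the log scale gave -0.39 ± 1.64 (SE, adjusted p = 0.893) with Dox and DESeq2 1.37 (adjusted p = 0.509), so the sign depended on the model. C9 without Dox library 2 was 1.91 in limma (adjusted p = 0.0362), which rests on Dox libraries 1 and 3, not independent of each other. C6 was similar in kind, with 426, 884 and 797 in controls, 2415, 262 and 1543 with Dox and 2016, 520 and 1242 with Tc. It was the only member with a positive limma estimate with Dox (0.57 ± 0.81, SE, adjusted p = 0.665).

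**Figure D4:**
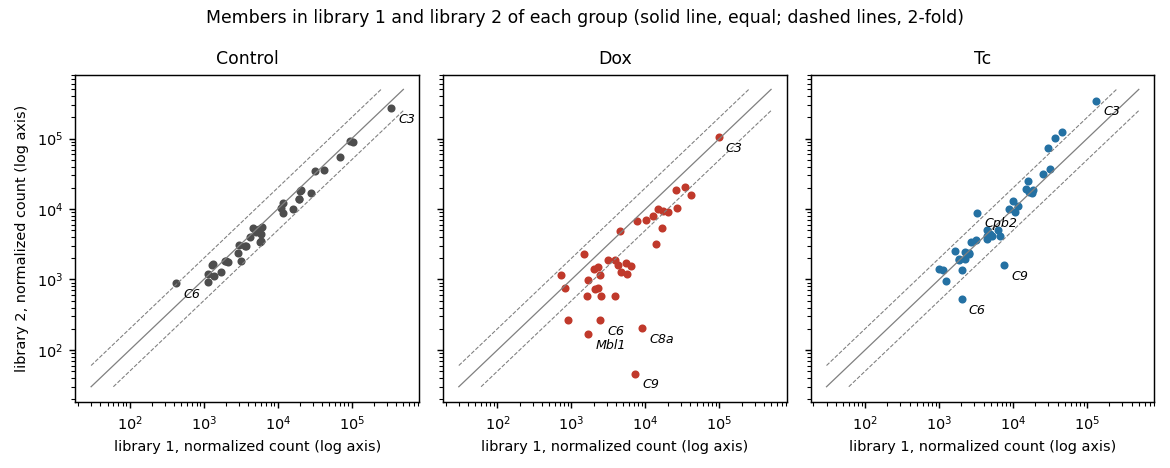
Each point is a member, with its normalized count in library 1 on the x axis and in library 2 on the y axis (both log), in 1 panel per group. Control points follow the line of equality and 1 lies outside the 2-fold lines, whereas 22 do so with Dox, led by C9 and C8a below the line, and 7 with Tc, with C9 and C6 below it and C3, the fibrinogen chains and Cpb2 above it.

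Between Dox libraries 1 and 2 the members had a median ratio of 2.43, and 34 of 38 were higher in library 1. Kng2, Pros1, C3 and F12 were the exceptions (named after their values were seen), with ratios of library 1 to library 2 of 0.65, 0.62, 0.93 and 0.94. In Tc the median ratio of library 1 to library 2 was 0.94, and in controls it was 1.18. Measured against the control mean, the median member was at 77.4% in Dox library 1, 35.1% in library 2 and 64.3% in library 3. In Tc it was at 90%, 99.6% and 89.2%. In Dox library 1, 26 members lay below the lowest control and 7 above the highest, while in Dox library 2, 36 lay below and 0 above.

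The contact system, which starts the intrinsic route to clotting and releases bradykinin, had no member called. Kng1, a kininogen and the most abundant of this role, stood at 28467, 16776 and 25180 in controls, 14691, 9886 and 12355 with Dox and 15766, 25415 and 16913 with Tc. Its Dox libraries lay below all others, but the controls themselves differed 1.70-fold, and the estimate was -0.92 ± 0.29 (SE, limma adjusted p = 0.0848, DESeq2 adjusted p = 0.0133). The DESeq2 adjusted p became 0.565 without libraries 3. Reads that fit both Kng1 and its paralog Kng2 were not counted, so each value is uncertain to that degree. F11, factor XI, stood at 1129, 919 and 1067 in controls, 906, 265 and 628 with Dox and 1231, 964 and 1077 with Tc. Its Dox libraries lay below the rest, with an estimate of -0.96 ± 0.38 (SE, adjusted p = 0.141), which was -0.46 without Dox library 2. F12, factor XII, was at like levels with both drugs, at 6041, 5612 and 5814 in controls, 4499, 4813 and 4387 with Dox and 4797, 4484 and 4801 with Tc. All drug libraries lay below the controls, with log2 fold changes of -0.35 ± 0.13 for Dox and -0.31 ± 0.13 for Tc (SE, limma adjusted p = 0.113 and 0.404). In DESeq2 the adjusted p values were 0.00253 and 0.0343, and F12 was the only member past that threshold with Tc (1.28% of genes were lower at it). Neither passed in DESeq2 without libraries 3 (adjusted p = 0.797 for Dox). Klkb1, prekallikrein, and Kng2 had estimates of -0.66 and -0.46 with Dox. Without Dox library 2 that of Klkb1 was 0.002 and that of Kng2 was -0.62.

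None of the 4 vitamin K-dependent clotting factors (F2, F7, F9 and F10) was called by limma or DESeq2 with the fold limit. F7 alone passed limma's adjusted p, and the Dox libraries of all 4 lay below all controls, where 17.1% of all genes did so. F7, factor VII, which starts clotting with tissue factor, had the smallest spread. Its counts were 1703, 1288 and 1406 in controls, 822, 756 and 792 with Dox and 1120, 1369 and 1375 with Tc. Its log2 fold change was -0.88 ± 0.14 (SE, limma adjusted p = 0.0144, 1.84-fold lower), short of the fold limit. F10, factor X, stood at 5634, 5207 and 4916 in controls, 3918, 1872 and 2984 with Dox and 4375, 5059 and 5138 with Tc. Its estimate was -0.91 ± 0.25 (SE, limma adjusted p = 0.058, DESeq2 adjusted p = 0.0153, or 0.514 in DESeq2 without libraries 3). F2, prothrombin, was the most abundant, at 20418, 18665 and 19533 in controls, 17362, 9418 and 13732 with Dox and 18279, 18881 and 19187 with Tc, and its estimate was -0.58 ± 0.24 (SE, adjusted p = 0.155). F9, factor IX, had an estimate of -0.59. Without Dox library 2 the estimates of F2 and F9 were -0.34 and -0.38. With Tc the 4 genes ranged from -0.18 to -0.06, none called.

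Neither the cofactor F5 nor the factor XIII carrier subunit F13b was called by either tool. F5, factor V, stood at 11977, 8929 and 11744 in controls, 10282, 7021 and 8895 with Dox and 11814, 11062 and 9577 with Tc. The groups overlapped, and the estimate with Dox was -0.32 ± 0.21 (SE, adjusted p = 0.335). F13b stood at 2894, 2391 and 2493 in controls, 2256, 1484 and 1921 with Dox and 2268, 2473 and 2394 with Tc. Its Dox libraries lay below all others, at -0.48 ± 0.17 (SE, adjusted p = 0.113). The estimates of F5 and F13b were -0.17 and -0.31 without Dox library 2.

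All 3 fibrinogen chains were called lower with Dox, and they lie next to each other on chromosome 3, with gaps of 11026 and 6513 bases between Fgg, Fga and Fgb. Fga, the alpha chain (ENSMUSG00000028001, chr3:83026076-83033627), stood at 103088, 88168 and 99022 in controls, 41558, 15761 and 31225 with Dox and 45597, 122227 and 70512 with Tc. Fgb, the beta chain (ENSMUSG00000033831, chr3:83040141-83049863), stood at 96031, 91644 and 87092 in controls, 33991, 20482 and 28191 with Dox and 36682, 102993 and 61593 with Tc. Fgg, the gamma chain (ENSMUSG00000033860, chr3:83007724-83015049), stood at 69394, 55214 and 63849 in controls, 27145, 10234 and 20561 with Dox and 29262, 73788 and 44515 with Tc. For each chain the 3 Dox libraries lay below every other library, Tc library 1 was near Dox library 1, and Tc library 2 was the highest of all 9.

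The log2 fold changes with Dox were -1.82 ± 0.47 for Fga, -1.76 ± 0.40 for Fgb and -1.81 ± 0.45 for Fgg (SE, limma adjusted p = 0.0491, 0.0354 and 0.0427). These are levels 3.53-fold, 3.39-fold and 3.5-fold lower, and DESeq2 gave -1.71, -1.73 and -1.70. Without libraries 3 the estimates were -1.90, -1.83 and -1.89, each with an adjusted p of 0.573 in limma. With Tc they were -0.40, -0.57 and -0.45 (SE of 0.47, 0.40 and 0.45), none called, and Tc libraries 1 and 2 differed 2.68-fold, 2.81-fold and 2.52-fold. The chains kept similar proportions, since Fga was 0.77 to 1.24 times Fgb and Fgg 0.50 to 0.80 times Fgb by count over the 9 libraries, with Dox library 2 lowest in both ratios. Fibrinogen took 2.38% to 2.44% of the counts in controls, 0.544% to 1.03% with Dox and 1.12% to 2.73% with Tc.

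The anticoagulants had no member called by either tool. Serpinc1, antithrombin, the main inhibitor of thrombin, stood at 19347, 13901 and 18127 in controls, 19932, 8961 and 15290 with Dox and 17795, 17171 and 16519 with Tc. The groups overlapped, with an estimate of -0.28 ± 0.30 (SE, adjusted p = 0.561). Proc, protein C, stood at 5045, 4662 and 4388 in controls, 4287, 1619 and 3204 with Dox and 4428, 3817 and 4623 with Tc, and its Dox libraries lay just below the controls (-0.74 ± 0.31, SE, adjusted p = 0.16). Serpind1, heparin cofactor II, had the highest estimate of the role with Tc, 0.04, and stood at 5883, 4408 and 5762 in controls, 5505, 1699 and 3931 with Dox and 6318, 5024 and 5081 with Tc. Pros1, protein S, the cofactor of protein C, was at 723 in Dox library 1 and 1177 in Dox library 2, the opposite order from most members. Without Dox library 2 the estimates were 0.04 for Serpinc1, -0.34 for Proc and -0.19 for Serpind1. That of Pros1 went the other way, from -0.43 to -0.60 (limma adjusted p = 0.0392, DESeq2 adjusted p = 0.0183). Whether anticoagulants and fibrinogen differed in their response to Dox was not tested.

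The fibrinolytic genes Plg, Serpinf2 and Cpb2 lay lower in all Dox libraries than in all control and Tc libraries. Plg stood at 42816, 36003 and 38457 in controls, 25754, 18549 and 22410 with Dox and 31298, 37461 and 33828 with Tc (-0.82 ± 0.23, SE, limma adjusted p = 0.0594, DESeq2 adjusted p = 6.87e-05). Its DESeq2 adjusted p without libraries 3 was 0.353. Serpinf2, alpha-2-antiplasmin, the inhibitor of plasmin, stood at 15866, 10134 and 14294 in controls, 7761, 6755 and 7093 with Dox and 10042, 12835 and 10714 with Tc. It was lower with Dox by 1.84-fold (-0.88 ± 0.21, SE, limma adjusted p = 0.0401), short of the fold limit. Cpb2, a carboxypeptidase that slows fibrinolysis, stood at 5812, 3432 and 5290 in controls, 2431, 1166 and 1838 with Dox and 3263, 8869 and 4237 with Tc. Its estimate of -1.45 ± 0.41 (SE) missed the threshold in limma (adjusted p = 0.0621) and passed in DESeq2 (-1.42, adjusted p = 0.0101). It did not pass in DESeq2 without libraries 3 (adjusted p = 0.449). The enzyme precursor and 2 of its restraints thus all stood lower.

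**Figure D5:**
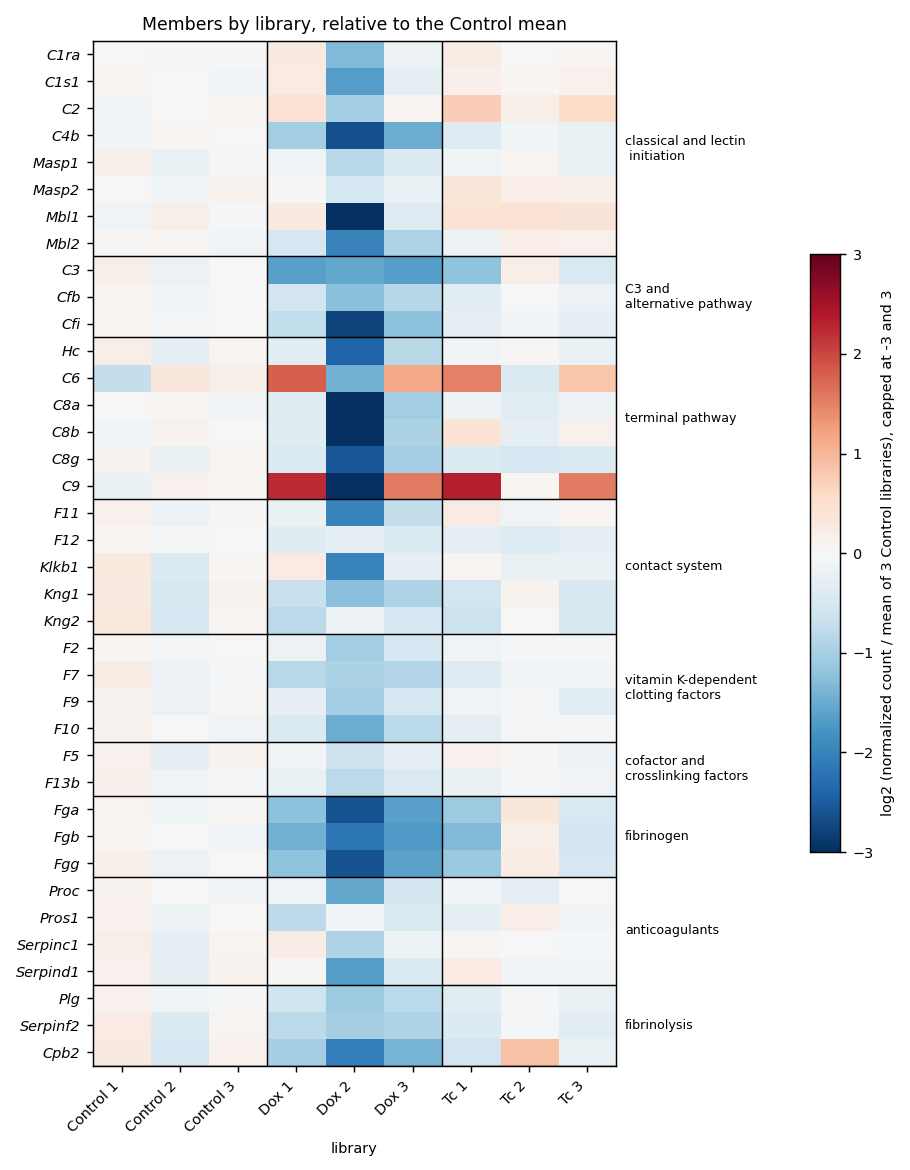
Colours give the log2 ratio of each member's normalized count to the mean of the 3 Control libraries (capped at -3 and 3), with members in rows by role and libraries in columns. The Dox 2 column is blue for nearly all members, the C3 and fibrinogen rows are blue in all Dox columns and in Tc 1, and C6 and C9 are red in libraries 1 and 3 of both drugs.

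With Tc, limma called 0 of 38 members against control, and DESeq2 also called 0 with the fold limit (0.165% of all genes were called by limma and 1.30% by DESeq2). In limma 1 member had an unadjusted p under 0.05 (11.7% of genes). The median log2 fold change of the members was -0.10, with 25 of 38 below 0 (5989 of the 12100 genes), and 0.00 over all genes (0.0036 before rounding). Every Tc library lay below every control library for 5 members (14.9% of genes) and above for 3 members (15.8% of genes). C4b, Cfi, C8a, C8g and F12 were the 5. Without libraries 3 the median was -0.06, and limma and DESeq2 called 0 members (0% and 0.0289% of genes).

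Dox and Tc were given at the same concentration and for the same time, so the groups were compared directly. limma called 0 of 38 members (0.174% of genes were called lower with Dox), with 17 at an unadjusted p under 0.05 (21.7% of genes). DESeq2 called 7 lower with Dox than with Tc (2.32% of genes), namely C4b, Mbl2, C3, the 3 fibrinogen chains and Cpb2. The estimated difference was below 0 for all 38 members and for 6210 of the 12100 genes, with a median of -0.69 where all genes had -0.02. It was below 0 for 34 of 38 without Dox library 2, and for 35 of 38 when every library was scaled to the same total (where calls over all genes went from 21 lower and 5 higher to 2 lower and 1 higher, or from 80.8% to 66.7% lower). Every Dox library lay below every Tc library for 22 of 38 members, against 12.4% of genes. The largest of the 7 DESeq2 differences were -1.59 for Cpb2 (adjusted p = 0.00675) and -1.43 for Fga (adjusted p = 0.0164). When the Dox and Tc libraries alone were fitted with the replicate number as a block, 0 members were called by limma and 1 of 221 genes called by DESeq2 was a member, C4b (-1.48, adjusted p = 0.0388). Without libraries 3 both tools called 0 (0% and 0.268% of genes). F12 was nearly equal between the drugs, with a log2 difference of -0.04 ± 0.13 (SE).

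Other genes of these systems were read from the same fit. Of 12 tested complement components outside the members and 11 regulators, none was called with Dox or Tc by limma or DESeq2. With no fold limit, Colec11, a collectin, and Cpn2, a carboxypeptidase N subunit, passed lower with Dox in limma (-0.90 and -0.89, adjusted p = 0.00942 and 0.0138). Their median log2 fold changes with Dox were -0.89 and -0.89. Among 14 other clotting genes 2 were called lower with Dox. Serpina10, the protein Z-dependent protease inhibitor, stood at 5540, 4577 and 5023 in controls, 1740, 480 and 1170 with Dox and 2768, 7217 and 4426 with Tc (-2.34, limma adjusted p = 0.0249). F13a1, the catalytic factor XIII subunit that macrophages and platelets make, was lower from a low level of 18 to 33.6 in controls to between 1.8 and 3.5 with Dox (-2.94, adjusted p = 0.0125). DESeq2 also called Procr, the endothelial protein C receptor, lower with Dox (-2.30 in limma) and F13a1 lower with Tc, and Vtn, vitronectin, and Serpina10 lower with Dox than with Tc.

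Of 8 other fibrinolysis genes, Hgfac, a protease that activates hepatocyte growth factor, was called lower with Dox (-1.15, limma adjusted p = 0.0192). DESeq2 further called Plau, urokinase, lower, from counts of 33.9 or less in every library. A2m, alpha-2-macroglobulin, stood out with Tc. Its counts were 25.4, 15.9 and 29.2 in controls, 4.2, 0 and 7 with Dox and 17.6, 6435 and 2325 with Tc, so it was high in Tc libraries 2 and 3 and at control level in Tc library 1. DESeq2 called it higher with Tc than in controls and lower with Dox than with Tc. Of the 5 vitamin K cycle genes none was called by limma. The 11 hepatocyte transcription factors and 8 genes of interleukin-6 signalling had median log2 fold changes with Dox of -0.17 and -0.08, and limma called none, although Foxa2 passed lower with Dox with no fold limit (-0.87, adjusted p = 0.0175). DESeq2 called Onecut1 lower with Dox than with Tc, at 647, 105 and 490 with Dox and 2783, 1036 and 1951 with Tc.

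Acute-phase genes were also lower in the Dox libraries, with summed counts of 109400, 150600 and 118200 against 418800 to 457500 in controls. By this sum Dox library 2, the lowest library for most members, was the highest of the Dox libraries. All 20 listed had log2 fold changes below 0 with Dox and 11 were called by limma (median -2.16), where 3.86% of all genes were called lower. DESeq2 called 17 of them lower (5.53% of genes). Saa2, a serum amyloid A gene, stood at 14964, 18592 and 14813 in controls, 105, 12.7 and 72.1 with Dox and 522, 37158 and 15518 with Tc, and Saa1 and Orm1 had estimates of -7.24 and -1.82 with Dox. Tc library 1 was low and Tc library 2 high, as for C3 and fibrinogen. Of 18 plasma carrier genes, 1 was called lower with Dox (median -0.51), and Alb, albumin, had an estimate of -1.52 (limma adjusted p = 0.208). DESeq2 called 3 lower, Itih1, Alb (-1.45, adjusted p = 0.00137) and Hpx.

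Markers of other liver cells differed in direction with Dox. All 8 Kupffer cell markers had estimates below 0 and 3 were called lower by limma, with a summed count of 7808 to 14950 in controls, 2155 to 7105 with Dox and 3821 to 7813 with Tc. All 8 sinusoidal endothelial markers were below 0 and 2 were called, with sums of 6287 to 6512 in controls, 3094 to 3466 with Dox and 4800 to 5554 with Tc. Of 6 erythroid markers tested, 4 were called lower, and of 5 neutrophil markers 1, with sums of 1535 to 6078 and 55 to 516 in controls and 763 to 2495 and 5.3 to 139 with Dox. limma called 3.86% of all genes lower with Dox. DESeq2 called 6 Kupffer, 5 erythroid and 4 neutrophil markers lower with Dox (5.53% of genes). With Tc it called 5 erythroid, 1 neutrophil and 1 platelet marker lower (1.30% of genes in either direction). None of 8 stellate cell markers was called by either tool, Sox9 was called higher among 3 cholangiocyte markers tested, and Ppbp lower among 3 markers of megakaryocytes and platelets. Of the 8 hepatocyte markers limma called 1, Tdo2, higher with Dox, and DESeq2 called Tdo2 and Tat higher and Alb lower. Their sum ranged from 1128000 to 1611000 in controls and from 628100 to 839300 with Dox. The part of these cells and of the acute-phase genes in the values of the members was not tested.

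Neighbouring members did not always show like estimates. Of 8 neighbouring pairs within 100 kilobases, the fibrinogen genes had near-equal values and F7 and F10, 1498 bases apart on chromosome 8, had -0.88 and -0.91 with Dox. Cfb and C2, 85 bases apart on chromosome 17, had -0.89 and -0.17, and Kng2 and Kng1 on chromosome 16 had -0.46 and -0.92. These differences within pairs were not tested.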

How the data were processed

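RNA of 9 mouse liver samples in 3 groups was sequenced as single-end reads from directional libraries. Per the labels and the study's methods, the authors trimmed reads with cutadapt, aligned them with STAR to mm10 with GENCODE vM23, counted uniquely mapped reads per gene with HTSeq-count 2.0.5 and normalized them with DESeq2 1.42.0. The strand setting is not given in the sources used here. The table the authors deposited gives a signal, each gene's count divided by the size factor of its library (normalized count), and whole reads were recovered for 100% of values (within 0.001).

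limma 3.58.1 (R 4.3.3, with a trend) was fitted to log2(normalized count + 1) of 12100 genes with a mean of at least 10, in all 9 libraries, with Benjamini-Hochberg adjustment, and fold changes on that scale understate changes of low genes. DESeq2 1.42.0 and edgeR 4.0.16 on recovered reads were alternatives. The number of genes with an adjusted p in DESeq2 differs by comparison. Scripts were tested on simulated data. Positions are from GENCODE vM21 on GRCm38, the same build. Promoters are from RefSeq. Results of some listed genes are not reported here.

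The members and lists were chosen with earlier results of these data known. Per-library values are given for members called by either tool or at the adjusted p, for fibrinogen, and for the most abundant and the most changed member of each role. Deviations of same-numbered Dox and Tc libraries correlated (r = 0.287, 0.321 and 0.182), so the numbers in the labels were taken to pair them. Control libraries did not pair with either (-0.0807 to 0.055). Since libraries 3 are near sums of the others, these are not independent. Nothing in the labels says that libraries came from separate mice beyond their numbers. The paper describes 3 independent samples, or biological replicates, for the RNA sequencing. How that relates to the near sums in libraries 3 was not tested, so p-values here measure the spread between libraries. Intervals from counting would cover counting error only.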

Additional observations from a re-analysis of the deposited data

How the results depend on the processing

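The count of members called lower with Dox against control (4 in limma) was the result most open to processing. It was 0 with no filter on low values, 0 without libraries 3 (limma, and also DESeq2), 1 with only the 2 groups in the fit, 0 with a replicate block over all 9 libraries, 7 with no fold limit, 8 in DESeq2, 11 at an unadjusted p with the fold limit and 11 with array weights (9 lower, 2 higher, in a fit whose weights did not fully converge). Leaving out 1 library at a time gave 0 to 15 members, 0 without any 1 control library, Dox library 3 or Tc library 3, and 15 without Dox library 1. Against Tc the count was 0 in limma, 7 in DESeq2, 8 with array weights, 11 at an unadjusted p, 5 in DESeq2 without Dox library 2 and 1 in DESeq2 with the replicate block, the last pair chosen after seeing the data. Leaving out 1 library gave 0 to 12, with 12 without Dox library 1 and 1 without Dox library 2. For Tc against control it was 0 throughout except 1 (higher) with array weights. The block on Dox and Tc called 0 members in limma. The causes of these shifts were not tested.

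The medians kept their sign: with 1 library left out they ranged from -1.05 to -0.58 for Dox against control, from -0.17 to -0.03 for Tc against control and from -0.9997 to -0.48 for Dox against Tc, lowest without Dox library 1 and highest without Dox library 2 where Dox entered. The share of counts ranged from -4.63 to -4.03, from -2.37 to -0.64 and from -3.72 to -2.00 percentage points. C4b, Mbl2, C3, Cfb, Cfi, F7, the fibrinogen chains, Serpinf2 and Cpb2 kept their direction in every alternative run. Of their 18 results, 7 passed the adjusted p threshold in the main limma fit, and all 7 lost it without libraries 3. The other 11 were listed because DESeq2 called them, so their passing in DESeq2 was fixed by the choice and adds no evidence. Pseudocounts of 0.1 and 8 changed none of the 18. Without Dox library 2, C9, C1ra, C2, Serpinc1 and Klkb1 changed from below to above 0 in limma. In DESeq2, C1ra, C2, Serpinc1 and C1s1 did so, whereas C9 was above 0 both with and without that library (1.37 and 1.95).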
